A study of Mus musculus with 6 samples.

Results

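The cytosolic ribosomal protein genes were described in RNA from embryonic mouse tooth germs, in 3 Smad7-/- and 3 wild-type libraries. Members were all symbols formed as Rpl or Rps and a number, with an optional a, x or l and digit, together with Rplp0, Rplp1, Rplp2 and Rpsa. This rule took 83 of the 23420 symbols in the count tables, 51 of the large subunit and 32 of the small subunit. The rule used names only and no measured value.

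The cytosolic ribosome is made of a small subunit, which reads the messenger RNA, and a large subunit, which joins amino acids and is topped by a flexible protein stalk that recruits translation factors. Each subunit holds ribosomal RNA and many proteins, nearly all in a single copy, so the proteins are needed in like amounts. Their messenger RNAs typically start with a run of pyrimidines, the terminal oligopyrimidine or TOP motif, through which the mTOR pathway controls their translation together. In a tooth germ, where epithelium and mesenchyme proliferate while the crown takes shape, most cells express these genes highly.

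Both groups were C57BL/6 embryos at E15.5, the one Smad7-/- and the other wild type, with no further treatment or allele named. The Smad7 protein is an inhibitory SMAD, a brake on TGF-beta and BMP signals, and the study compares the transcripts of tooth germs that lack or carry the intact gene. The labels do not say how the Smad7 allele was made, whether germs of several embryos were pooled, or whether libraries come from separate animals. The p-values therefore measure only the spread between these samples, which may be technical.

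The Smad7-/- libraries held 37591888, 44021706 and 56575476 counts, and the wild-type libraries held 52137318, 48911104 and 47800685. Smad7 itself had 80, 62 and 41 counts in Smad7-/- libraries, against 1097, 934 and 859 in wild-type libraries, so each library matched its label. Its log2 fold change was -3.80 ± 0.33 (SE, n = 3 per group), with an adjusted p of 0.00749 by edgeR's quasi-likelihood test with Benjamini-Hochberg adjustment. That call ended without Smad7-/- library 2 (log2 -3.83, adjusted p = 0.0887 by edgeR). All 10 dental epithelium and all 10 dental mesenchyme markers were detected. Dental epithelium markers summed to 15884 to 20531 CPM (counts scaled to the size of the library, with TMM factors) in Smad7-/- libraries and to 18428 to 28237 CPM in wild-type libraries. Dental mesenchyme markers summed to 582 to 624 CPM in Smad7-/- libraries and to 486 to 554 CPM in wild-type libraries, without overlap. By single genes, 0 of 10 epithelium markers had a log2 fold change above 0, with a median of -0.19, and 9 of 10 mesenchyme markers did, with a median of 0.48. Of these 20 markers edgeR called 0, beside 0.0262% of all genes, and DESeq2 called 1, beside 0.351% of all genes. The marker called was Prrx1, a homeobox gene of craniofacial mesenchyme. The part of tissue makeup in the levels of ribosomal protein genes was not tested. Fewer cells of a type and less RNA per cell cannot be told apart in such bulk samples.

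Before any comparison of genotypes, the ribosomal protein genes divided the 6 libraries in a way that crossed genotype. The members took 6.06%, 6.33% and 5.23% of all counts in Smad7-/- libraries 1, 2 and 3, against 6.46%, 5.16% and 5.08% in wild-type libraries 1, 2 and 3. Smad7-/- library 3 thus lay beside wild-type libraries 2 and 3, and wild-type library 1 was above every Smad7-/- library. The large subunit genes took 3.31%, 3.44% and 2.81% in Smad7-/- libraries, against 3.49%, 2.74% and 2.69% in wild-type libraries. The small subunit genes took 2.75%, 2.90% and 2.43% in Smad7-/- libraries, against 2.97%, 2.42% and 2.39% in wild-type libraries. Both subunits gave the same order of the 6 libraries.

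The division held gene by gene. Of the 83 members, 80 had enough counts to be tested, and 75 of these had a mean of at least 50 CPM. For each gene, the log2 CPM of a library was set against the mean of that gene over the 6 libraries. The median member stood at 0.09, 0.18 and -0.15 in Smad7-/- libraries 1, 2 and 3, and at 0.16, -0.15 and -0.15 in wild-type libraries 1, 2 and 3. Of 80 members, 72, 78 and 4 lay above their own mean in the Smad7-/- libraries, against 79, 8 and 8 in the wild-type libraries. Over all 15284 genes tested, between 50.7% and 52.6% lay above their own mean in each library. Smad7-/- libraries 1 and 2 and wild-type library 1 were the 3 highest libraries for 71 of the 80 members, and for 14.9% of all tested genes. The labels give no batch or date that could be set against this order, and its source was not tested.

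**Figure D1:**
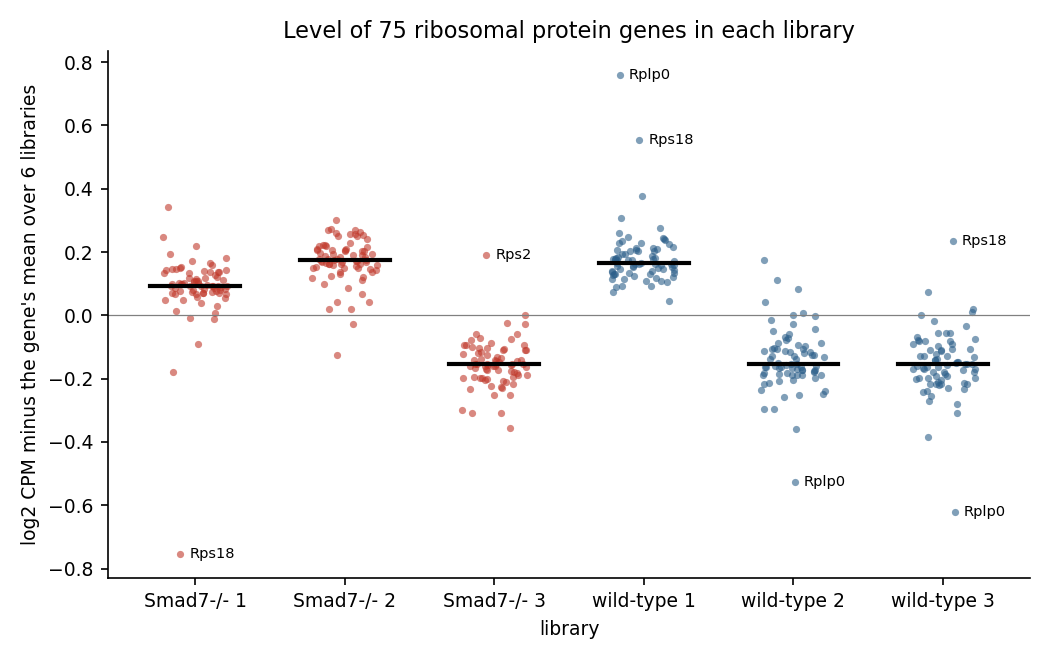
Deviation of each ribosomal protein gene from its own mean over the 6 libraries (log2 CPM, y axis) by library (x axis), with 1 point for each of the 75 members of at least 50 CPM and a bar at the median of the points. Points of Smad7-/- libraries 1 and 2 and wild-type library 1 lie mostly above 0, those of the other 3 libraries mostly below, and Rps18, Rplp0 and Rps2 stand apart from their neighbours.

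The most abundant members show this order in their levels. Rpl4, a core protein of the large subunit near the exit tunnel, had 2296, 2338 and 1891 CPM in Smad7-/- libraries, against 2357, 1922 and 1777 CPM in wild-type libraries. Rpsa, a small subunit protein also known as the laminin receptor, had 1971, 2167 and 1700 CPM in Smad7-/- libraries, against 2179, 1651 and 1697 CPM in wild-type libraries. For both genes the groups overlapped, with wild-type library 1 the highest of the 6 libraries for each. Rps4x, the X-linked gene for a small subunit protein, had 1894, 2054 and 1609 CPM in Smad7-/- libraries, against 1943, 1483 and 1734 CPM in wild-type libraries. Rps3a1, another small subunit gene, had 1721, 1850 and 1538 CPM in Smad7-/- libraries, against 1867, 1426 and 1562 CPM in wild-type libraries. Wild-type library 2 was the lowest for both, below Smad7-/- library 3. Rpl7, a large subunit gene, had 1787, 1832 and 1530 CPM in Smad7-/- libraries, against 1829, 1429 and 1543 CPM in wild-type libraries. With Rplp0 these 5 genes make up the 6 most abundant members, which together held 19.6% of the members' CPM.

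The median member of each library was then taken away from every member. Of the 75 members of at least 50 CPM, 58 lay within 0.15 (log2) of the library's median member in all 6 libraries. Another 14 went beyond 0.15 but not beyond 0.3 in any library. The remaining 3 were Rplp0, Rps18 and Rps2. With the library medians left in, the SD of log2 CPM over the 6 libraries had a median of 0.17 among the 75 members. It ran from 0.10 to 0.52 and was at most 0.25 for 69 of them. The median SD over all genes of at least 50 CPM was 0.12.

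Rplp0, the stalk protein that anchors P1 and P2 to the large subunit, had the largest spread. It had 2340, 2405 and 1893 CPM in Smad7-/- libraries, against 3409, 1398 and 1308 CPM in wild-type libraries. Wild-type library 1 was far above all others and the other 2 wild-type libraries were below all Smad7-/- libraries, so that the wild-type values enclosed the Smad7-/- values. Relative to the median member of each library, it stood at 0.12, 0.08 and 0.07 in Smad7-/- libraries and at 0.60, -0.37 and -0.47 in wild-type libraries (log2). The departures therefore lay within the wild-type group. The fold change was 0.12 ± 0.36 (log2, SE), with an adjusted p of 1.00 by edgeR. Without wild-type library 1 it was 0.70 ± 0.13, with an adjusted p of 0.231 by edgeR, and without wild-type library 2 or 3 it was -0.09 and -0.12.

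The partners of Rplp0 in the stalk showed no departures of that size. Rplp1 had 1102, 1211 and 1024 CPM in Smad7-/- libraries, against 1149, 1081 and 999 CPM in wild-type libraries, and its SD of 0.10 (log2 CPM) was the smallest among the 75 members. Rplp2 had 554, 560 and 466 CPM in Smad7-/- libraries, against 570, 494 and 431 CPM in wild-type libraries. Their fold changes were 0.05 ± 0.11 and 0.08 ± 0.12 (log2, SE), with ranges that overlapped. In mm10, Rplp0 spans 115559467 to 115563727 of chromosome 5 (forward strand), Rplp1 spans 61913284 to 61914542 of chromosome 9 (reverse strand) and Rplp2 spans 141447370 to 141451585 of chromosome 7 (forward strand).

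Rpl13a and Rpl32, with a wide spread as well, kept to the common order of the libraries. Rpl13a, a large subunit protein known in human monocytes for a second role in silencing inflammatory transcripts, had 1339, 1217 and 825 CPM in Smad7-/- libraries, against 1371, 926 and 809 CPM in wild-type libraries. Rpl32, a large subunit gene, had 923, 1027 and 709 CPM in Smad7-/- libraries, against 974, 746 and 686 CPM in wild-type libraries. Their SDs of log2 CPM were 0.35 and 0.25. For both, Smad7-/- libraries 1 and 2 and wild-type library 1 were the 3 highest. Rps2, a small subunit protein at the entry of the messenger RNA channel, did not keep to that order, with 668, 574 and 715 CPM in Smad7-/- libraries, against 758, 533 and 547 CPM in wild-type libraries. Smad7-/- library 3, low for most members, had the second highest Rps2 level.

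At the other end, Rpl10 and Rpl36a varied least after Rplp1 and Rpl7l1. Rpl10, an X-linked large subunit gene whose protein joins the ribosome late in assembly, had 633, 642 and 554 CPM in Smad7-/- libraries, against 641, 553 and 552 CPM in wild-type libraries. Rpl36a, also X-linked, had 346, 378 and 319 CPM in Smad7-/- libraries, against 359, 306 and 318 CPM in wild-type libraries. The 4 X-linked members of at least 50 CPM had log2 fold changes from 0.07 to 0.11, within the range of the autosomal members.

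**Figure D2:**
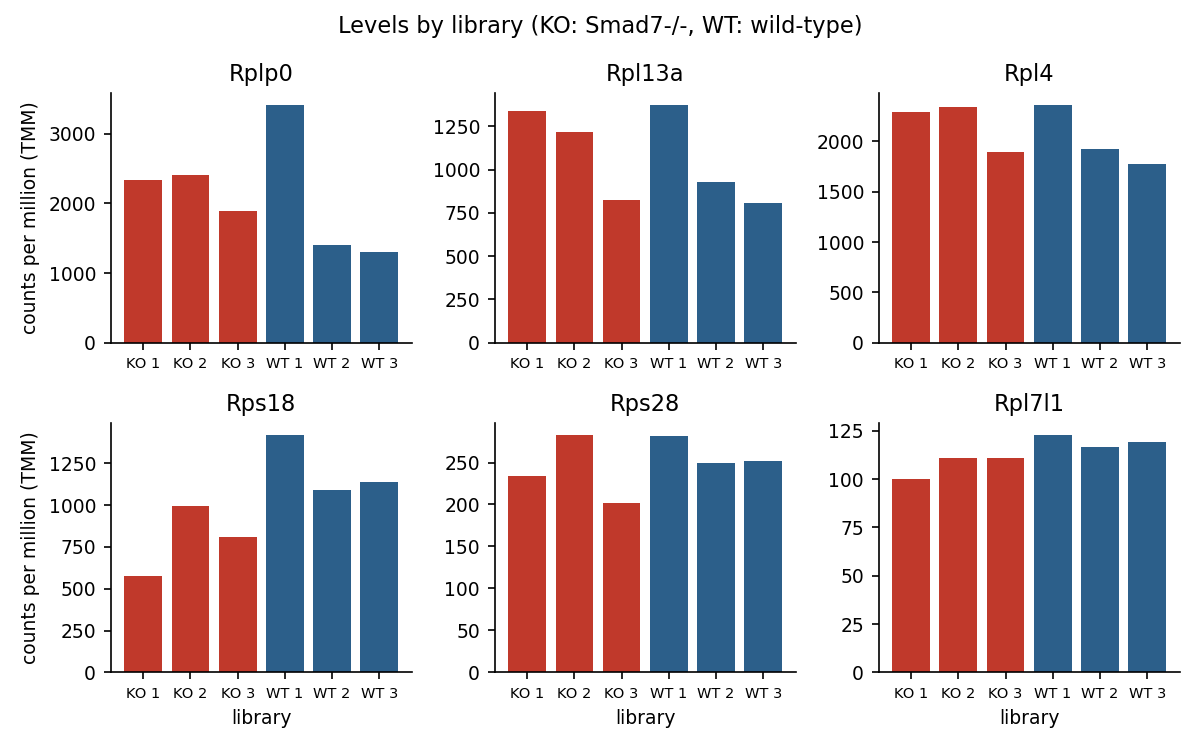
Level (CPM, y axis, from 0) of Rplp0, Rpl13a, Rpl4, Rps18, Rps28 and Rpl7l1. Each bar is a single library, with the 3 Smad7-/- bars left of the 3 wild-type bars. Rplp0 spreads most widely in wild-type libraries, from 1308 to 3409 CPM, Rpl13a and Rpl4 overlap between the groups, and Rps18 is below 1000 CPM in all Smad7-/- libraries and above it in all wild-type libraries.

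Between genotypes, no ribosomal protein gene passed the test. By edgeR's quasi-likelihood test with Benjamini-Hochberg adjustment over all genes, 0 of 80 members were called at an adjusted p under 0.05, beside 4 genes (0.0262%) of all tested. In each direction 0 members were called, beside 2 higher (0.0131%) and 2 lower (0.0131%) of all genes. The smallest adjusted p of a member was 0.766, for Rps18, which was also the 1 member with an unadjusted p under 0.05, where 5.14% of all genes had one. DESeq2 called 0 of the 81 members to which it gave an adjusted p, beside 0.351% of all genes, with a smallest adjusted p of 0.106, again for Rps18. The ranges of the groups were apart for 0 members on the higher side, beside 4.97% of all genes. They were apart for 2 members on the lower side, Rps18 and Rpl7l1, beside 3.91% of all genes, and in either direction for 8.88% of all genes. The share of members apart was thus below that of all genes.

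The fitted differences were small and mostly on one side. Of 80 members, 73 had a log2 fold change above 0 (91.3%) and 7 below it, where 49.1% of all tested genes were above 0. The median member stood at 0.08, with quartiles of 0.05 and 0.11, and the median of all genes was -0.00283 on the same log2 scale. The SE of a single member had a median of 0.13. Large subunit genes had a median of 0.09, with 46 of 48 above 0, and small subunit genes a median of 0.07, with 27 of 32 above 0. Among the 75 members of at least 50 CPM, 74 lay within 0.2 of 0, Rps18 being the exception. Since the members vary together over libraries, these 80 signs are not separate observations.

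The size of the shared difference depended on which libraries entered. Set against the wild-type mean, the median member of Smad7-/- libraries 1, 2 and 3 stood at 0.14, 0.22 and -0.11 (log2). The members above their wild-type mean numbered 71, 77 and 7 of 80 in these libraries. Without Smad7-/- library 1, 2 or 3 the median member difference was 0.0554, 0.0164 and 0.165. Without wild-type library 1, 2 or 3 it was 0.191, 0.0275 and 0.0243. The summed share of counts was 5.88% ± 0.573 in Smad7-/- libraries and 5.57% ± 0.773 in wild-type libraries (SD, n = 3 each), a difference of 0.308 percentage points. This was smaller than either SD. Without Smad7-/- library 1, 2 or 3 it was 0.214, 0.0789 and 0.629 points, and without wild-type library 1, 2 or 3 it was 0.753, 0.105 and 0.0643 points.

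**Figure D3:**
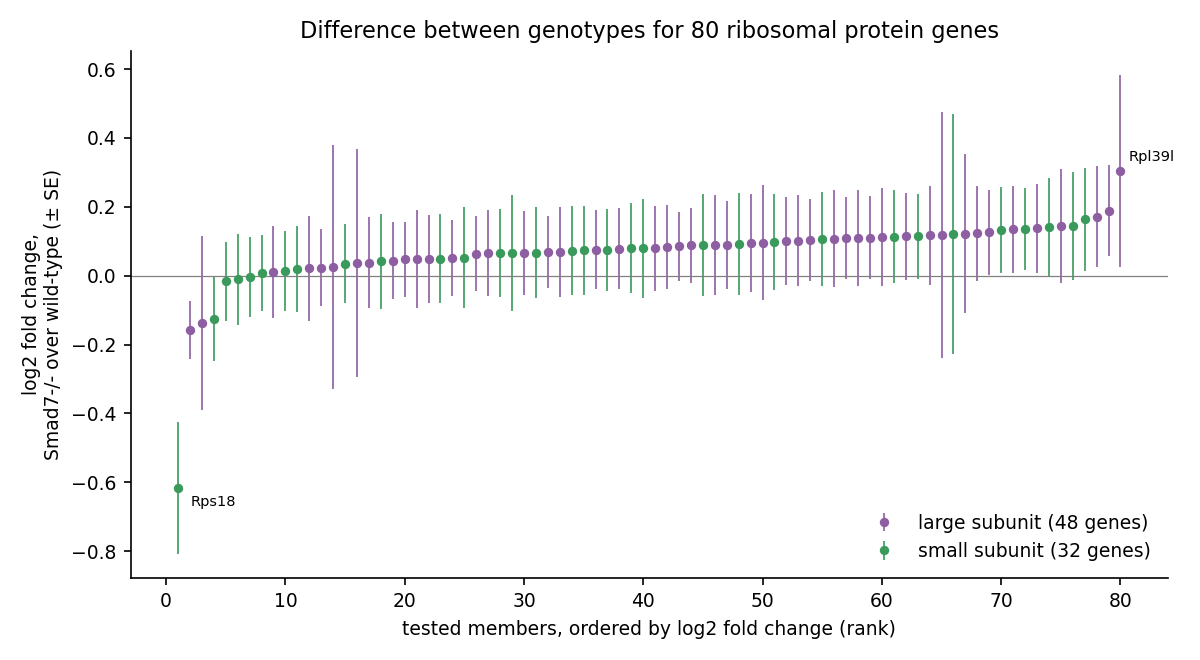
Log2 fold change (Smad7-/- over wild type, y axis) of the 80 tested ribosomal protein genes in order of size (x axis). Large and small subunit genes are marked apart, and bars are 1 SE derived from edgeR's F statistic. Most points lie between 0 and 0.2 with bars that cross 0, Rps18 is lowest at -0.62 and Rpl39l, with wide bars, is highest at 0.30.

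Among members of at least 50 CPM, those with the largest positive differences stayed within their replicate spread. Rpl10a, a large subunit gene, had 748, 804 and 597 CPM in Smad7-/- libraries, against 712, 574 and 600 CPM in wild-type libraries, a log2 fold change of 0.19 ± 0.13 SE. Smad7-/- library 3 was below 2 of the wild-type libraries. Rpl21, also of the large subunit, had 274, 294 and 220 CPM in Smad7-/- libraries, against 273, 191 and 236 CPM in wild-type libraries, with 0.17 ± 0.15. Rps15a, a small subunit gene, had 1150, 984 and 970 CPM in Smad7-/- libraries, against 1148, 790 and 833 CPM in wild-type libraries, with 0.16 ± 0.15. Rps23, whose protein sits at the decoding centre, had 786, 829 and 607 CPM in Smad7-/- libraries, against 816, 587 and 605 CPM in wild-type libraries, with 0.15 ± 0.16. The adjusted p of each of these genes was 0.999 by edgeR.

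Rps18, which encodes a protein in the head of the small subunit, differed most. It had 574, 996 and 812 CPM in Smad7-/- libraries, against 1419, 1091 and 1139 CPM in wild-type libraries. The highest Smad7-/- library was below the lowest wild-type library, and Smad7-/- library 1, high for other members, had the lowest level. The means were 794 ± 212 CPM in Smad7-/- libraries and 1216 ± 177 CPM in wild-type libraries (SD, n = 3 each), which puts the Smad7-/- mean at 65.3% of the wild-type mean. The log2 fold change was -0.62 ± 0.19 SE, with an unadjusted p of 0.0104 and an adjusted p of 0.766 by edgeR. It did not pass under any of the 14 alternatives, which gave -0.81 to -0.43 (log2) with adjusted p-values of 0.106 (DESeq2) to 1.00 (edgeR). The value nearest 0 came without Smad7-/- library 1 and the farthest without Smad7-/- library 2. Relative to the median member, Rps18 stood at -0.85, -0.13 and -0.10 in Smad7-/- libraries and at 0.39, 0.33 and 0.39 in wild-type libraries (log2).

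Rps18 lies on chromosome 17 at 33951999 to 33956001 (mm10, reverse strand, 5 exons), in the major histocompatibility region. The kit did not record strand, so reads of overlapping genes cannot be told apart. Of the 75-base words of its coding sequence, 76.4% also occurred in transcripts of 9 other genes, 5 of them annotated as pseudogenes. Vps52, a vesicle tethering gene that starts next to Rps18 at 33955812 on the other strand, had 55.5, 53.5 and 50.4 CPM in Smad7-/- libraries, against 43.4, 51.2 and 49.5 CPM in wild-type libraries. Its fold change was 0.15 ± 0.10 (log2, SE) and its ranges overlapped. H2-K2, a class I histocompatibility gene that starts at 33974659, had 1.22, 0.690 and 0.781 CPM in Smad7-/- libraries, against 0.176, 0.162 and 0 CPM in wild-type libraries. DESeq2 gave it an adjusted p of 0.0154 and edgeR one of 0.577. These values rest on 46, 30 and 45 counts in Smad7-/- libraries, against 9, 8 and 0 counts in wild-type libraries. Of the genes read near Rps18, DESeq2 called no other. The part that sequence shared between genes has in the Rps18 values was not tested.

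Rps28, another small subunit gene on the same chromosome at 33819027 to 33824562, was also on the lower side. It had 234, 283 and 202 CPM in Smad7-/- libraries, against 281, 250 and 252 CPM in wild-type libraries, a log2 fold change of -0.12 ± 0.12 SE. Smad7-/- library 2 was the highest of all 6, so the groups overlapped.

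Several members are paralogs of a standard ribosomal protein gene. Apart from Rps27l, their levels ran from close to the partner down to undetected. Per kilobase of coding length, Rpl22l1 reached 70.1% of the level of Rpl22, a partner whose protein also binds RNA outside the ribosome. Rpl22l1 had 259, 289 and 220 CPM in Smad7-/- libraries, against 259, 232 and 251 CPM in wild-type libraries. Rpl22 had 400, 411 and 336 CPM in Smad7-/- libraries, against 412, 362 and 338 CPM in wild-type libraries. Neither differed beyond its spread, with 0.05 ± 0.11 for Rpl22l1 and 0.04 ± 0.11 for Rpl22 (log2 fold change, SE).

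Rpl7l1, a nucleolar relative of Rpl7, reached 7.50% of the per-kilobase level of Rpl7. It had 99.8, 111 and 111 CPM in Smad7-/- libraries, against 123, 117 and 119 CPM in wild-type libraries. The ranges were apart by a narrow gap, with a log2 fold change of -0.16 ± 0.08 SE and an adjusted p of 0.999 by edgeR. Unlike most members, it did not put Smad7-/- libraries 1 and 2 above Smad7-/- library 3. Rps27l, which in human cells is a target of p53, had 96.1, 108 and 82.5 CPM in Smad7-/- libraries, against 108, 91.6 and 90.2 CPM in wild-type libraries. Its log2 fold change was -0.02 ± 0.12 SE, with ranges that overlapped. Per kilobase of coding length the mean level of Rps27l was 381 CPM, while its partner Rps27 was listed at 4.25 CPM per kilobase. Rps27 belongs to the standard genes with very low listed levels that are described below.

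The paralogs known from testis and striated muscle were near or at the floor. Rpl39l, a testis paralog, had 2.26, 3.93 and 3.003 CPM in Smad7-/- libraries, against 2.77, 1.80 and 2.89 CPM in wild-type libraries. This was 0.468% of the per-kilobase level of Rpl39, its partner. Rpl3l, of striated muscle, had 4, 4 and 10 counts in Smad7-/- libraries, against 10, 3 and 5 counts in wild-type libraries, and was not tested. Rpl10l, of testis, had 0 counts in all 6 libraries, which allows up to 3 counts or 0.0530 to 0.0798 CPM depending on the library. The partners were abundant. Rpl39 had 635, 644 and 554 CPM in Smad7-/- libraries, against 644, 553 and 528 CPM in wild-type libraries. Rpl3, whose protein lies near the peptidyl transferase centre, had 1421, 1464 and 1266 CPM in Smad7-/- libraries, against 1581, 1085 and 1236 CPM in wild-type libraries. Rps4l was not analysed here.

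Levels differed between members although their proteins are used in like amounts. Among the 74 members of at least 50 CPM other than Rpl41, the mean level per kilobase of coding length had a median of 1420 CPM and quartiles of 983 and 1871 CPM, a ratio of 1.90. The lowest value was 154 CPM per kilobase, for the paralog Rpl7l1, and the highest 3876, for Rpl39. Counts cover whole transcripts, and Rpl39 has 153 coding bases in a transcript of 612 bases, so its place holds for coding length alone. Small subunit genes of at least 50 CPM had a median of 1745 CPM per kilobase and large subunit genes one of 1129. Because its coding part is likewise small, Rpl41, which encodes a very short peptide, is set apart, with 75 coding bases, a transcript of 544 bases and 10838 CPM per kilobase of coding length.

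Rpl26, Rpl29, Rpl30, Rpl34 and Rps27 form a group of their own, since they encode standard ribosomal proteins but were listed at or near 0. Rpl26, of the large subunit, had 0 counts in all 6 libraries. Rpl29, also of the large subunit, had 2.26, 2.76 and 1.65 CPM in Smad7-/- libraries, against 2.38, 2.43 and 2.51 CPM in wild-type libraries. Rpl30 had 1.41, 1.59 and 1.13 CPM in Smad7-/- libraries, against 1.85, 1.23 and 0.921 CPM in wild-type libraries. For comparison, the median of the mean levels of all 83 members was 666 CPM. Rpl34 had 0.852, 1.40 and 1.18 CPM in Smad7-/- libraries, against 1.03, 1.58 and 0.775 CPM in wild-type libraries. Rps27, of the small subunit, had 1.14, 1.38 and 0.833 CPM in Smad7-/- libraries, against 1.13, 0.688 and 1.26 CPM in wild-type libraries. These genes were low in every library of both groups, and the 4 of them that were tested gave log2 fold changes of -0.14 to 0.12, each within 1 SE of 0.

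Many ribosomal protein genes have processed copies elsewhere in the genome, and reads that match several places may be dropped or split in counting. How the authors treated such reads is not given in the sources used here. Between 60.6% and 100% of the 75-base coding words of the 5 low genes also occurred in transcripts of other genes. The 75-base length was chosen for this check, since the sources used here do not give the read length. Of the 75 members of at least 50 CPM, 56 had at least the lowest of these shares, and 24 had all of their words shared. Rps29 was one of these, with all words shared and a mean of 650 ± 70.6 CPM in Smad7-/- libraries and 617 ± 69.9 CPM in wild-type libraries (SD, n = 3 each). Over the 83 members, Spearman's rho between the share of words and the level per kilobase was -0.11, given as a description, since all levels come from the same 6 libraries. Levels of members with many shared words are uncertain, and the part of shared sequence in the low values was not tested.

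**Figure D4:**
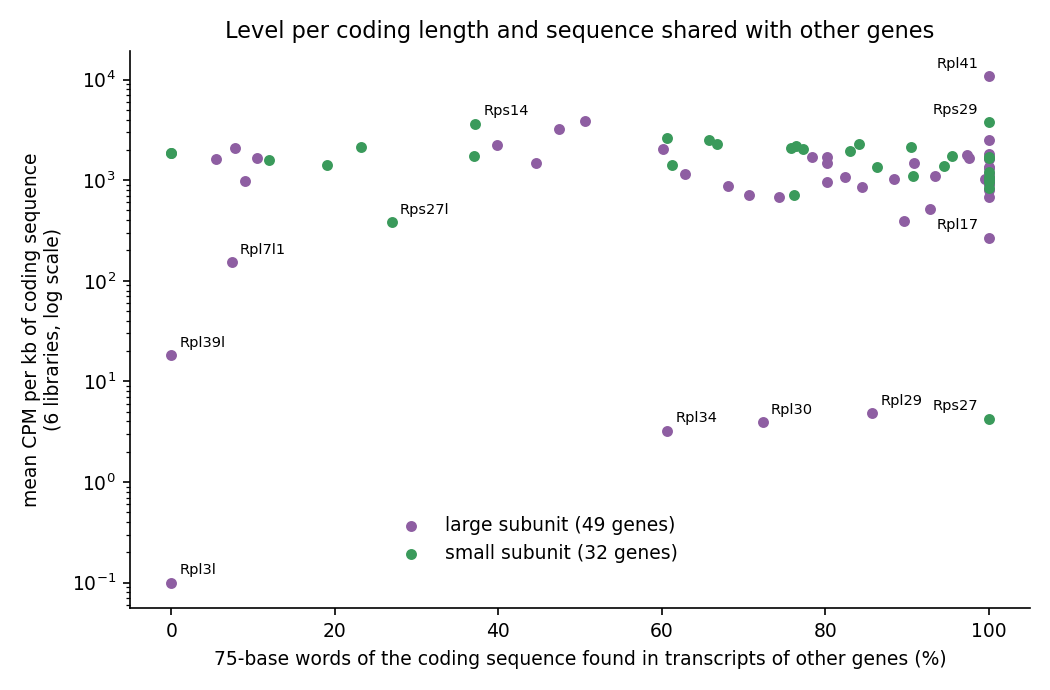
Mean level per kilobase of coding length (CPM per kilobase, log axis) of the members against the share of their 75-base coding words that occur in transcripts of other genes (percent). Rpl26 and Rpl10l have no point because their counts were 0. Rpl29, Rpl30, Rpl34 and Rps27 lie between 3.24 and 4.86 CPM per kilobase, while the other members with at least 60.6% of their words shared all lie at 268 CPM per kilobase or above.

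Transcripts of proteins with a role in signalling outside the ribosome followed the same order of libraries. Rpl5 and Rpl11, which with 5S ribosomal RNA bind Mdm2 and so stabilise p53, had log2 fold changes of 0.09 ± 0.13 and 0.13 ± 0.13 SE. Rpl11 had 778, 800 and 656 CPM in Smad7-/- libraries, against 792, 627 and 616 CPM in wild-type libraries. Rps6, the substrate of S6 kinase downstream of mTOR, had 783, 786 and 645 CPM in Smad7-/- libraries, against 836, 618 and 616 CPM in wild-type libraries. Each of these pairs of groups overlapped, with Smad7-/- library 3 and wild-type libraries 2 and 3 the lowest.

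Other genes of translation were read from lists of the wider pathway, and edgeR called 0 members of each list named here over all genes. The 15 other TOP messenger RNAs gave library medians of 0.06, 0.13 and -0.08 in Smad7-/- libraries and 0.17, -0.12 and -0.12 in wild-type libraries (log2 deviation from each gene's own mean). This list put the same 3 libraries above 0 as the ribosomal protein genes did. It had a median log2 fold change of 0.07, with 13 of 15 above 0. Eef1a1, the elongation factor that carries aminoacyl transfer RNA and a member of that list, had 11423, 12000 and 10391 CPM in Smad7-/- libraries, against 12981, 9356 and 9964 CPM in wild-type libraries. The 34 translation factors tested gave 0.06, 0.09 and -0.08 in Smad7-/- libraries and 0.11, -0.07 and -0.08 in wild-type libraries, with a median log2 fold change of 0.05 and 24 of 34 above 0.

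Genes that build ribosomes showed a flatter profile. The 51 ribosome biogenesis genes gave library medians of 0.02, 0.02 and -0.02 in Smad7-/- libraries and 0.12, -0.02 and -0.08 in wild-type libraries, with 27 of 51 fold changes above 0 and a median of 0.00246. Ncl and Npm1, nucleolar proteins of ribosome assembly, had log2 fold changes of 0.02 ± 0.11 and 0.02 ± 0.10 SE. The 14 RNA polymerase I genes had a median of -0.01, with 5 of 14 above 0, and the 18 regulators of ribosomal protein genes a median of -0.02, with 7 of 18 above 0. Myc, a transcription factor that drives ribosome production, had 24.8, 30.2 and 31.3 CPM in Smad7-/- libraries, against 30.9, 35.1 and 31.1 CPM in wild-type libraries. Its fold change of -0.17 ± 0.12 (log2, SE) was the lowest of the 18 regulators, of which the highest was 0.11. The 76 genes of the mitochondrial ribosome, which translates the few messages of the organelle, gave -0.01, 0.06 and -0.07 in Smad7-/- libraries and 0.08, -0.01 and -0.01 in wild-type libraries. Their median log2 fold change was -0.02, with 30 of 76 above 0.

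The 16 p53 targets had a median log2 fold change of -0.01, with 7 of 16 above 0 and 0 called by edgeR. DESeq2 called 1 of them, beside 0.351% of all genes. It was Cdkn1a, the cyclin-dependent kinase inhibitor p21, which had the highest log2 fold change of the 16. Cdkn1a had 35.5, 29.6 and 21.4 CPM in Smad7-/- libraries, against 17.4, 16.4 and 16.5 CPM in wild-type libraries. Cdkn1a thus had ranges apart on the higher side, as had 4.97% of all genes. Its log2 fold change was 0.78 ± 0.17 SE by edgeR, with an adjusted p of 0.536 by edgeR and 0.00834 by DESeq2. Mdm2, another p53 target and the ligase that degrades p53, had 77.1, 73.6 and 63.9 CPM in Smad7-/- libraries, against 68.0, 68.5 and 73.7 CPM in wild-type libraries.

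**Figure D5:**
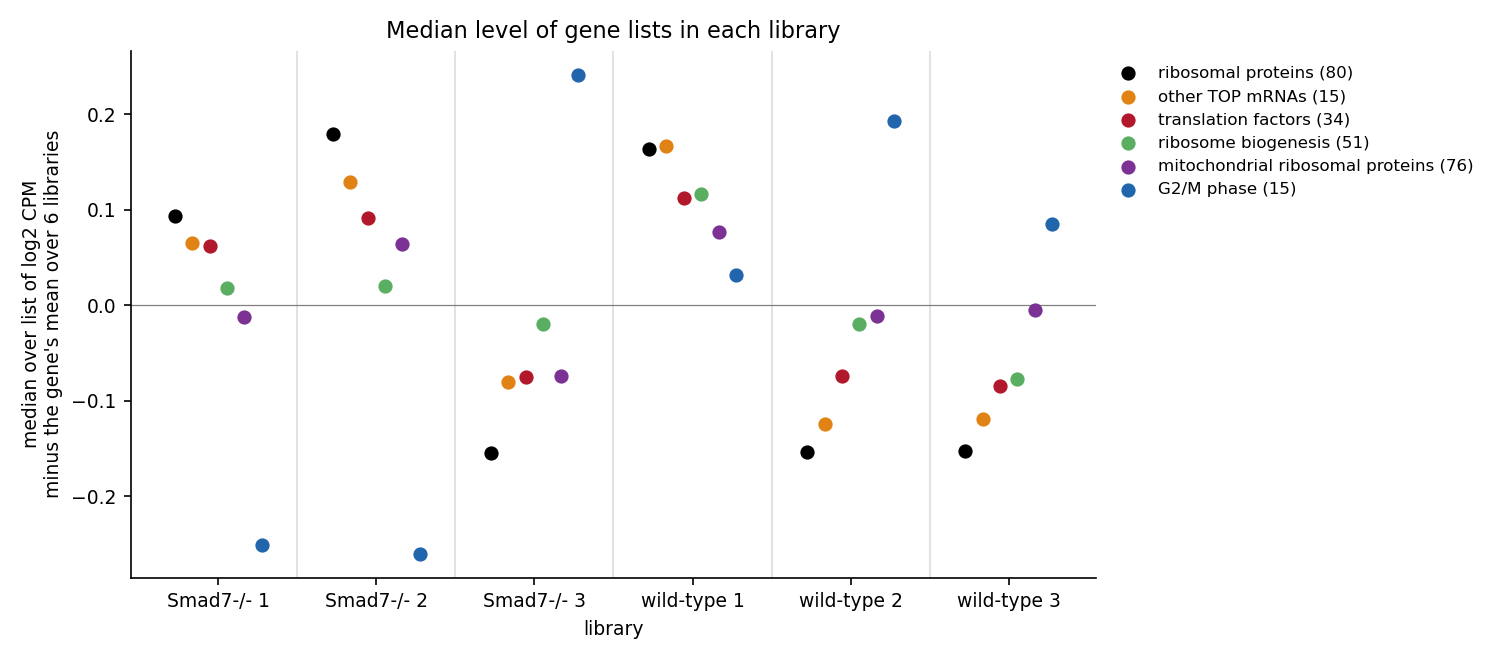
Median deviation of 6 gene lists from the genes' own means (log2 CPM, y axis) in each of the 6 libraries (x axis), with Smad7-/- libraries left of wild-type libraries. Ribosomal protein genes show the widest contrast among the lists of ribosome and translation genes shown, from -0.15 to 0.18, and G2/M phase genes are lowest in Smad7-/- libraries 1 and 2 and highest in Smad7-/- library 3.

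Levels of cell cycle genes and of short genes over the libraries were set beside those of the ribosomal protein genes. The 15 G2/M phase genes gave -0.25, -0.26 and 0.24 in Smad7-/- libraries and 0.03, 0.19 and 0.08 in wild-type libraries. Their summed levels were 1180, 1080 and 1767 CPM in Smad7-/- libraries, against 1394, 1643 and 1516 CPM in wild-type libraries. The 3 libraries with the most ribosomal protein transcripts were the 3 with the fewest G2/M transcripts. The 317 other genes of at least 50 CPM with a coding length under 500 bases gave 0.00, 0.10 and -0.10 in Smad7-/- libraries and 0.08, -0.04 and -0.03 in wild-type libraries. The 4126 such genes of 500 bases or more gave 0.03, 0.01 and -0.03 in Smad7-/- libraries and 0.04, -0.01 and -0.03 in wild-type libraries. The part of cell cycle or transcript length in the ribosomal protein levels was not tested.

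Markers of other cell types were read from the same libraries. Red blood cell markers summed to 45.3 to 57.4 CPM in Smad7-/- libraries and to 72.1 to 97.4 CPM in wild-type libraries, with 7 of 14 listed genes tested and 5 globin genes, Hba-a1, Hba-a2, Hbb-b1, Hbb-b2 and Hbb-bh1, at 0 counts throughout. Macrophage markers, 11 of 11 tested, summed to 208 to 225 CPM in Smad7-/- libraries and to 122 to 170 CPM in wild-type libraries. Of these 11 genes, 10 had a log2 fold change above 0. EdgeR called 0 of them and DESeq2 called 3, beside 0.351% of all genes by DESeq2. Endothelial markers, 10 of 10 tested, summed to 409 to 451 CPM in Smad7-/- libraries and to 294 to 440 CPM in wild-type libraries. Of these 3 lists, the red blood cell and macrophage sums did not overlap between the groups, and the endothelial sums did. Skeletal muscle markers summed to 7.05 to 9.27 CPM in Smad7-/- libraries and to 9.13 to 11.6 CPM in wild-type libraries. Neuronal markers summed to 303 to 371 CPM in Smad7-/- libraries and to 344 to 382 CPM in wild-type libraries. Most of that sum was Tubb3, with 243 to 299 CPM in Smad7-/- libraries and 273 to 312 CPM in wild-type libraries. By single genes, 5 of the 8 neuronal markers tested had a log2 fold change above 0, with a median of 0.05. DESeq2 called 0 of the red blood cell, endothelial, skeletal muscle and neuronal markers. The part of these cell types was not tested either.

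Members were also read by their place in the genome, where they lie on 19 chromosomes. Of the 75 members of at least 50 CPM, 29 carry small nucleolar RNA genes within their span, which guide modification of ribosomal RNA, and 46 do not. The median log2 fold change was 0.09 with and 0.08 without them, and the median SD of log2 CPM was 0.18 with and 0.17 without.

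The starts of the genes were read for the features known from this family, in the RefSeq promoter table (build GRCm38.p6), which matched 63 of the 83 members and 16375 genes of the tables. Pyrimidine words like those of the TOP motif were searched on the gene's strand within 25 bases either side of the annotated start. The words were CTCTTT and, with a run of T in front of the last C, CTTTTC, besides a form that ends in a pair of C, CTTTCC. They occurred in 20 of 63 members (31.7%) and in 6.03% of all 16375 genes. On either strand they occurred in 38.1% of members and 10.9% of all genes. The core word of ETS factors, CCGGAAG, was searched on both strands from 250 bases before the start to 50 after it, and occurred in 41.3% of members and 12.9% of all genes. The core word of YY1, ATGGCGG, occurred in 17.5% of members and 6.08% of all genes in the same search. A TATA word, TATAAA, within 50 bases before the start on the gene's strand, occurred in 1 of 63 members (1.59%) and in 3.60% of all genes. The pyrimidine words can overlap each other, and a match is a description of the letters only.

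The windows of 6 members are shown because the expression results turn on them, or because they show how the pyrimidine words lie around the start. Each runs from 45 bases before the annotated start to 25 after it, 5′ to 3′ on the gene's strand, with the pyrimidine words in capitals. Rpl4, Rps6, Rpl35 and Rpl13a hold 1 or more such words. Rplp0 and Rps18 hold none, as do most of the matched members, and the Rps18 window holds other runs of pyrimidines that these words do not cover.
Rplp0, chr5:115559422-115559491, forward strand: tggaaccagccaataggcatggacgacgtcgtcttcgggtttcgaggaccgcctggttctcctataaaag
Rps18, chr17:33955641-33955710, reverse strand: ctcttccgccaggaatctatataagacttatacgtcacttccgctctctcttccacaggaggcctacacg
Rpl4, chr9:64173342-64173411, forward strand: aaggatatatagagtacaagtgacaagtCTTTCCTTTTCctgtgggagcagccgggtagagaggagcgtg
Rps6, chr4:86857343-86857412, reverse strand: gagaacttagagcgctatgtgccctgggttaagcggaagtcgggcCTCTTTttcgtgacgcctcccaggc
Rpl35, chr2:39005107-39005176, reverse strand: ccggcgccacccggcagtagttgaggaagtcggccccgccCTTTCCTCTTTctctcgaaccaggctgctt
Rpl13a, chr7:45128721-45128790, reverse strand: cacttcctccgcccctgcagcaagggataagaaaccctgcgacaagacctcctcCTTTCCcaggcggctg
In Rps6 the word begins at the annotated start itself, while in Rpl4 it begins 17 bases before the start and in Rpl13a 9 bases after it. The windows follow RefSeq's annotated starts, which may differ from the starts used in tooth germs. They also differ from GENCODE for some genes. The GENCODE spans of Rps18 and Rpl35, on the reverse strand, end at 33956001 and 39005624, beyond the windows shown. Rpl35, a large subunit protein beside the exit tunnel, had 411, 472 and 342 CPM in Smad7-/- libraries, against 451, 350 and 346 CPM in wild-type libraries, in the common order.

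Members with and without a pyrimidine word had like profiles over the libraries. Of the matched members of at least 50 CPM, 17 held a word and 40 did not. The median deviations of those with a word were 0.09, 0.18 and -0.15 in Smad7-/- libraries and 0.18, -0.14 and -0.20 in wild-type libraries (log2). Those without a word gave 0.09, 0.17 and -0.15 in Smad7-/- libraries and 0.16, -0.15 and -0.15 in wild-type libraries. Their median log2 fold changes were 0.10 with and 0.07 without a word, given as a description with no test. The words do not cover every run of pyrimidines, so members without a word may still carry a TOP motif. The split therefore does not compare members with and without that motif.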

How the data were processed

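Tooth germ RNA was extracted with RNeasy columns, and libraries were built with a TruSeq RNA kit, which is not strand-specific, per the labels' protocols. HISAT2, featureCounts, DESeq2 and mm10 are named in the submitters' processing notes without versions. Values are the authors' counts for each gene symbol as deposited, unnormalized, in 1 table per library. A spreadsheet program had changed 27 symbols to dates, which held at most 0.223% of a library's counts.

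The genes kept by filterByExpr (minimum count 10, minimum total 15) were scaled by TMM and tested with edgeR 4.0.16 (quasi-likelihood, robust fit, 3 against 3 libraries, no covariate), with Benjamini-Hochberg adjustment over 15284 genes at 0.05. Alternatives were DESeq2 1.42.0, changed size factors and filters, edgeR's non-robust fit, a replicate block, and leaving out each library. CPM use TMM library sizes, and log2 CPM a prior count of 1. SEs of edgeR fold changes were back-calculated as the absolute log2 fold change over the square root of the F statistic. Depth ran from 37591888 to 56575476 counts. Reads carry no molecular identifiers, so the limit given for 0 counts covers counting error only.

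The members and gene lists were chosen with earlier results of these data known. Members were named by level (the 6 highest), by difference (4 per direction) and by spread (4 widest, 4 narrowest), all of at least 50 CPM, or as stalk genes, Rpsa, and paralogs with partners. Other members, genes near Rps18, counts of ranges apart, differences per library, and the short genes were added after the data were seen. Annotation came from GENCODE M21 and sequences from RefSeq. The code was tested on simulated data. Figures were drawn with matplotlib 3.10.9. Results of 1 gene list are not reported here.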

Additional observations from a re-analysis of the deposited data

How the results depend on the processing

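The count of ribosomal protein genes called between genotypes was 0 in the fit reported and in all 14 alternatives, with smallest adjusted p-values of members from 0.106 (DESeq2) to 1.00 (edgeR without wild-type library 2). Over all genes, the 4 calls became 59 by DESeq2, 2 with a filter at 5 CPM, and 1 to 7 when each library was left out in turn. The median member difference stayed between 0.0769 and 0.0852 (log2) under other tools, scalings, filters and fits, and ran from 0.0164 to 0.191 when each library was left out. The difference in summed share ran from 0.0643 to 0.753 percentage points in the same way, and was 0.330 without the 50 most abundant other genes. The median of all genes lay between -0.00939 and 0.00318 over all settings.

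Of 362 recomputed differences of named members, 345 kept direction and side of the threshold and 17 changed sign, all of these when 1 library was left out. The ranges when each library was left out were -0.0282 to 0.37 for Rpl13a, -0.00436 to 0.21 for Rpsa, -0.0172 to 0.10 for Rplp1, -0.0450 to 0.15 for Rpl22l1 and -0.0183 to 0.13 for Rpl22 (log2). They were -0.10 to 0.30 for Rps27, -0.11 to 0.0771 for Rps27l, -0.12 to 0.70 for Rplp0, -0.0104 to 0.18 for Rps3a1, -0.0261 to 0.25 for Rpl3 and -0.0156 to 0.18 for Rplp2. The cause was not tested.

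With the replicate number as a block, 0 members were called (smallest adjusted p = 0.535 by edgeR), the median member difference was 0.0833 and 4 genes were called in all. Libraries of the same number had residual correlations of 0.156, -0.0276 and 0.0802 over genes, and Smad7-/- libraries 2 and 3 correlated best with wild-type libraries 3 and 2, so the numbers were not taken as pairs. With 3 libraries per group the smallest two-sided exact permutation p for a single value is 0.1.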

Other observations

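The tables also list pseudogene copies of ribosomal protein genes, which the rule for members leaves out. Rps15a-ps6 had 13.6, 16.4 and 8.19 CPM in Smad7-/- libraries, against 11.9, 10.2 and 12.7 CPM in wild-type libraries. Rps15a-ps4 had 3.51, 4.72 and 3.05 CPM in Smad7-/- libraries, against 3.18, 3.11 and 3.39 CPM in wild-type libraries. Rps19-ps3 had 1.44, 1.75 and 1.28 CPM in Smad7-/- libraries, against 1.72, 2.04 and 2.03 CPM in wild-type libraries. Rplp2-ps1 had 0 counts in all 6 libraries. The levels of Rps15a-ps6 and Rps15a-ps4 were above those of Rpl29, Rpl30, Rpl34 and Rps27 in the same libraries. These copies were singled out after their values were seen. The log2 fold changes were 0.13 ± 0.23 for Rps15a-ps6, 0.22 ± 0.22 for Rps15a-ps4 and -0.37 ± 0.26 for Rps19-ps3 (SE), and edgeR called 0 of the 3, with an adjusted p of 0.999 for each.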
